A study of Mus musculus with 6 samples.

Results

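The genes described here were 10 of the 23504 genes in the expression table of mouse bone marrow–derived macrophages (BMMs), and they code for the subunits of the transcription factor NF-κB and for feedback inhibitors and adaptors of its pathway. They were taken by gene symbol from a list of names, written with earlier results of these data known, and the rule itself used no measured value. The list held 5 subunits (Nfkb1, Nfkb2, Rel, Rela and Relb), 2 IκB inhibitors (Nfkbia and Nfkbie) and 3 feedback regulators (Tnfaip3, Tnip1 and Traf1), and all 10 were found. Levels were FPKM, the fragments counted on a gene scaled by its length and by the total of the library. Levels of different genes therefore depend on the length taken for each gene. Among the subunits this length ran from 2716 bases for Rela to 12061 bases for Nfkb1. RNA was sequenced in 6 libraries of BMMs from C57BL/6 mice on day 3, 3 from cells given DASA-58, a small molecule that activates the glycolytic enzyme pyruvate kinase M2, and 3 from cells given its solvent DMSO. The comparison asks what this activator does to gene expression during osteoclast formation, which is driven by RANKL, the ligand of the receptor RANK. The deposited design text and the paper's methods name RANKL for the activator-treated cells, do not say whether the DMSO cells received it and spell the compound DASA-48, whereas the paper's results describe induction of both groups. The concentration used for these libraries was not given as a value, and nothing states that the replicates came from separate mice or cultures, so p-values measure only the spread between these samples, which may be technical.

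In resting cells NF-κB dimers are held in the cytoplasm by IκB proteins. Receptors such as RANK, the TNF receptors and the Toll-like receptors activate the IKK complex through TRAF adaptors, IκB is phosphorylated and degraded, and dimers of the RELA, REL and p50 subunits enter the nucleus (the canonical arm), while the kinase NIK drives processing of the NFKB2 precursor to p52, the partner of RELB (the non-canonical arm). NF-κB then induces several of its own inhibitors, among them IκBα and A20, which end the signal. In osteoclast precursors both arms lie downstream of RANK, and loss of both NFKB1 and NFKB2 blocks osteoclast formation in mice.

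Several members are known NF-κB targets themselves, so the stretch before their annotated start is shown for those that the results below turn on. RefSeq promoters of build GRCm38.p6 were present for 8 of the 10 members, not for Nfkb1 or Relb. The 250 bases before the start were searched on both strands for the κB consensus, which reads 3 G, 1 purine, 2 bases of any kind, 2 pyrimidines and 2 C, and overlapping matches were merged. A match was present for 6 of the 8 members, namely Nfkb2, Rel, Nfkbia, Nfkbie, Tnfaip3 and Tnip1, and for neither Rela nor Traf1. Counted by promoter, since some members have several starts, 8 of the 11 promoters of these members held a match. Over all 32851 promoters of the table, 7.25% held a match. The 150 bases before the start are printed 5′ to 3′ with the matched bases in capitals. Nfkbia, Nfkb2, Tnip1 and Traf1 are the members called lower with DASA-58. Of those not called, Nfkbie, the member with a higher mean, and Rel, whose groups overlapped, are shown.
Nfkbia (chr12:55492648-55492797, minus strand): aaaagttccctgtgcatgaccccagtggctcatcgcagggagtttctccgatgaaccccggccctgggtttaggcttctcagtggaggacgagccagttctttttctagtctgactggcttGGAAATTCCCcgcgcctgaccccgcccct
Nfkb2, start 1 (chr19:46304587-46304736, plus strand): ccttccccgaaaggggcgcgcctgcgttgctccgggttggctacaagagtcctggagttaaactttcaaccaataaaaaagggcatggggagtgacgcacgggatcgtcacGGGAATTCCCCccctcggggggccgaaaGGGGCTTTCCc
Tnip1 (chr11:54962941-54963090, minus strand): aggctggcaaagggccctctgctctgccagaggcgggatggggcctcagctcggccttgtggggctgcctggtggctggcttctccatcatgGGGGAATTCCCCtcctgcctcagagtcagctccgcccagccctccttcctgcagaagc
Traf1 (chr2:34961773-34961922, minus strand): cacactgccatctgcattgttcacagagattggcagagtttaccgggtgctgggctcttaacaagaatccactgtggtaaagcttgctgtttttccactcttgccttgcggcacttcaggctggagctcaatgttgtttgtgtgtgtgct
Nfkbie (chr17:45555550-45555699, plus strand): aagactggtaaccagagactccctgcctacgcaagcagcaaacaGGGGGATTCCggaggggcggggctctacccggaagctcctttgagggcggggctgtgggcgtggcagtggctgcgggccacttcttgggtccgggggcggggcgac
Rel (chr11:23770970-23771119, minus strand): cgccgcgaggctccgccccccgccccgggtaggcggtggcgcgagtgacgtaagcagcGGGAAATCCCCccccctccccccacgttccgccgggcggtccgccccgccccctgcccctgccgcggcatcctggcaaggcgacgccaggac
The match lay at bases −29 to −20 from the start in Nfkbia, at −39 to −29 and −11 to −2 at the first start of Nfkb2, at −58 to −47 in Tnip1, at −106 to −97 in Nfkbie and at −92 to −82 in Rel. The first start of Tnfaip3, which is not printed, had matches at −125 to −116 and at −12 to −3. Matches 2 or more in number and apart from each other, as at the first starts of Nfkb2 and Tnfaip3, were present in 0.396% of the promoters in the table. The bases after the RefSeq start were found in an annotated transcript for each of these promoters other than that of Tnip1. Such a match describes the letters of the sequence and not a bound site. Traf1, the member with the largest decrease, had no match in this window. Nfkbia, Nfkb2 and Tnip1 had a match and a lower call. Rel, Nfkbie and Tnfaip3 had a match without a lower call, with Tnfaip3 near the threshold (limma adjusted p = 0.0594). Any link between a match and a change was not tested.

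**Figure D1:**
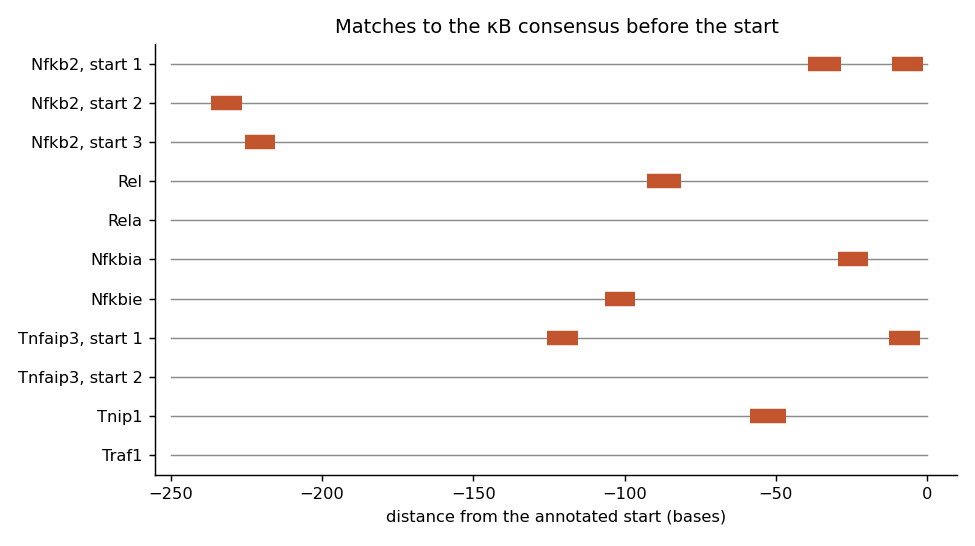
Matches to the κB consensus in the 250 bases before each annotated start of the 8 members in the RefSeq promoter table. The horizontal axis is the distance from the start in bases, each grey line is a promoter and each red block is a match. Of the 11 promoters drawn, 8 held a match, and the matches of Nfkbia and Tnip1, both matches at the first start of Nfkb2 and the nearer match of Tnfaip3 lay within the last 60 bases.

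After DASA-58 the RNA of Nfkbia, Traf1, Tnip1 and Nfkb2 fell, to between 74.9% and 89.7% of the mean DMSO level. No member rose by the same test, and the mean of Nfkbie alone was higher. With limma on log2(FPKM + 1) and Benjamini-Hochberg adjustment over 10965 genes, 4 of the 10 members had an adjusted p under 0.05 and a lower level, where 7.28% of all genes tested were called lower, and 0 were called higher, where 4.24% of all genes were. By unadjusted p under 0.05 in limma the counts were 6 lower, Relb and Tnfaip3 included, and 1 higher, Nfkbie, where 18.0% of all genes were lower and 9.83% higher at this limit. With voom weights the counts were 5 and 0 at an adjusted p under 0.05, against 11.8% and 6.51% of all genes. The DASA-58 and DMSO values did not overlap and were lower in 7 members, against 21.6% of all genes tested, and were higher without overlap in 1, against 11.8%. The median log2 fold change of the members was −0.14, against −0.03 over all genes. The mean was lower in 9 of the 10 members, although Rel turned to a difference of 0.00 on the log2 scale with quantile normalization. Fold changes on this scale understate the change of low genes, and in bulk RNA fewer cells of a type and less RNA per cell cannot be told apart.

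**Figure D2:**
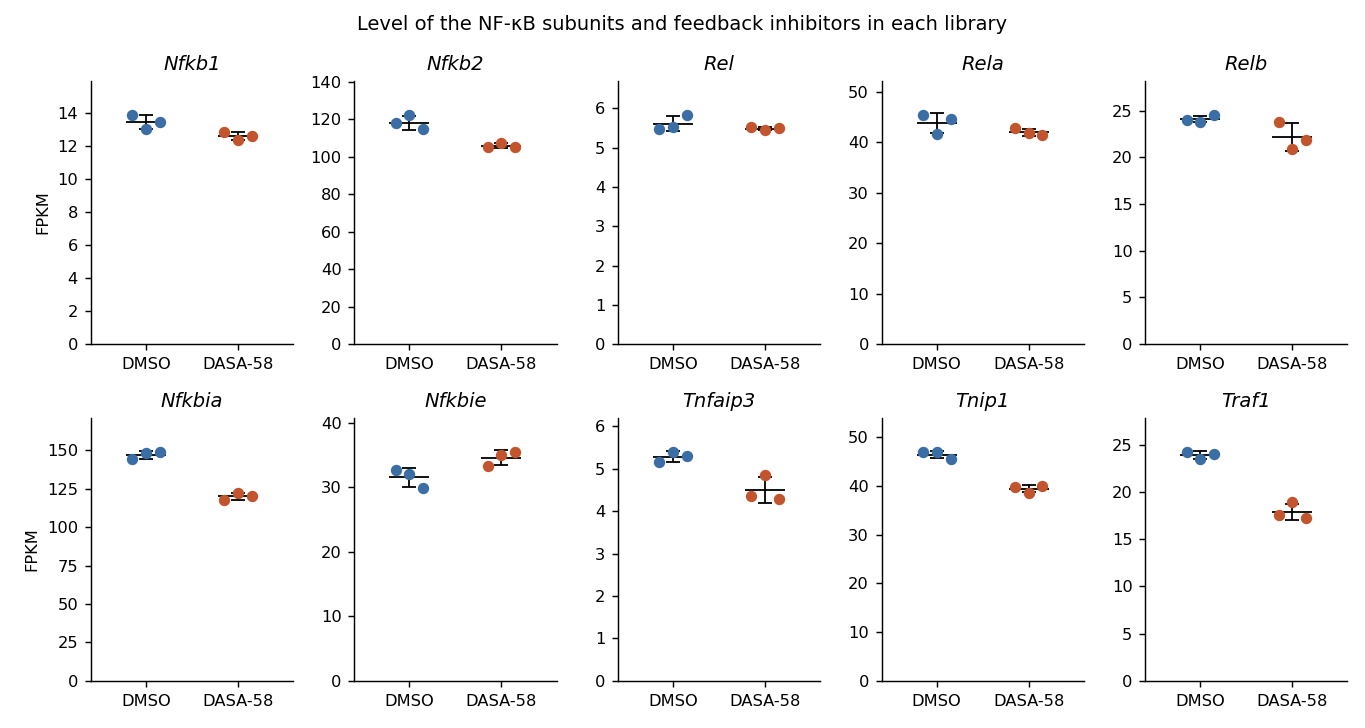
Level of each member in each library, in FPKM on a linear axis from 0, with DMSO in blue and DASA-58 in red. Points are the 3 libraries of a group, the long bar is the mean and the error bar is ± 1 SD. The groups lay apart and lower with DASA-58 for Nfkb1, Nfkb2, Relb, Nfkbia, Tnfaip3, Tnip1 and Traf1, lay apart and higher for Nfkbie, and overlapped for Rel and Rela.

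**Figure D3:**
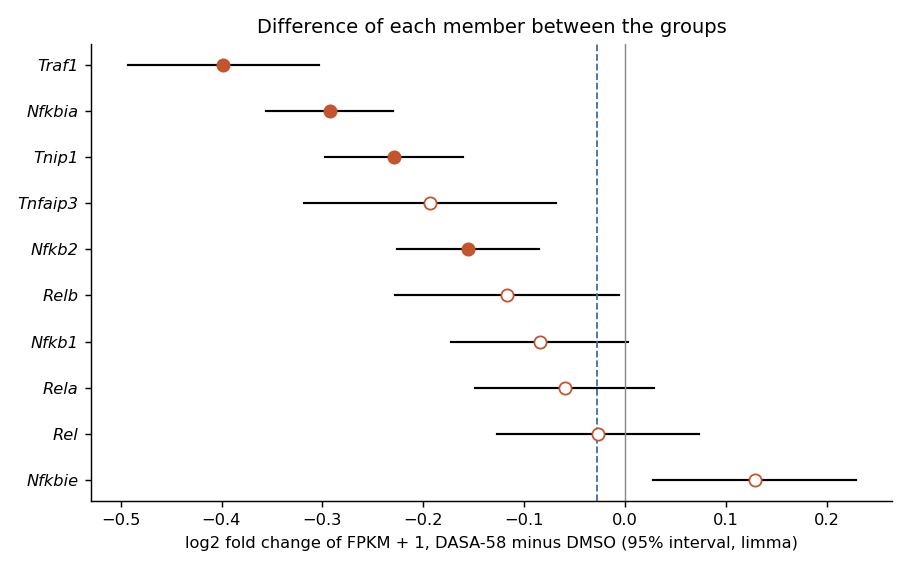
Log2 fold change of FPKM + 1 for each member, DASA-58 minus DMSO, with its 95% interval from limma. Filled points have an adjusted p under 0.05, the grey line marks 0 and the dashed blue line marks the median of all genes tested (−0.03). Traf1, Nfkbia, Tnip1 and Nfkb2 are filled, and Rel sits at the median of all genes and turns to 0.00 with quantile normalization.

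Markers of several cell types also differed between the groups, where 7.28% of all genes tested were called lower and 4.24% higher. Of 15 osteoclast markers, 14 were tested and 12 were called lower, and their summed level was 1061.2 to 1125.6 FPKM with DMSO and 700.2 to 722.4 FPKM with DASA-58, with Ctsk, the bone-resorbing protease cathepsin K, at 210 ± 6.26 and 110 ± 3.28 FPKM. Macrophage markers were abundant in both groups (Adgre1, which codes for F4/80, at 326 ± 7.70 and 390 ± 0.774 FPKM). Adgre1 and Mrc1 rose and Cd14 and Cx3cr1 fell, and of 11 tested 4 were called higher and 2 lower. The Cx3cr1 call was lost without a filter (adjusted p = 0.0513) and without variance shrinkage (0.0798). Of the 9 neutrophil markers tested 4 were called lower and 1 higher, their sum was 183.4 to 185.9 FPKM with DMSO and 149.6 to 153.1 FPKM with DASA-58, and the defining marker Ly6g, named after its values were seen, was at most 0.0583 FPKM. The granule genes Ngp and Camp and the calprotectin gene S100a9 fell, by 0.42, 0.70 and 0.28 on the log2 scale (limma adjusted p = 0.00103, 0.00395 and 0.00341), with Ngp at 46.7 ± 1.61 and 34.6 ± 1.56 FPKM (SD, n = 3 each). The Camp call was lost without variance shrinkage (adjusted p = 0.0638). The receptor gene Csf3r rose from 7.89 ± 0.222 to 10.6 ± 1.40 FPKM, a call lost without each DMSO library in turn (adjusted p over the alternatives at most 0.130). Summed lymphocyte markers reached at most 2.8 FPKM and dendritic cell markers 1.7 FPKM. Stromal markers were present in both groups, with a sum of 35.3 to 37.4 FPKM with DMSO and 35.8 to 37.0 FPKM with DASA-58. Of the 3 stromal markers tested by limma 0 were called, with 1 lower by unadjusted p under 0.05. The part of these cell types in the differences of the NF-κB genes was not tested.

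Among the subunits Nfkb2, which codes for the p100 precursor of p52, was the most abundant and the only 1 of the 5 called. Its level was 118, 122 and 115 FPKM in DMSO replicates 1, 2 and 3 and 105, 107 and 105 FPKM in DASA-58 replicates 1, 2 and 3. All 3 DASA-58 libraries lay below the lowest DMSO library, and the mean went from 118 ± 3.75 to 106 ± 1.21 FPKM (SD, n = 3 each), a log2 fold change of −0.16 (SE 0.03, limma adjusted p = 0.0166). This call was kept in 12 of 17 alternative settings and missed the threshold in 5, among them without DMSO replicate 1 (adjusted p = 0.0551), without DASA-58 replicate 1 (0.0600) and without DASA-58 replicate 3 (0.0646), and was kept without each of the other 3 libraries. In GENCODE M21, exons of Nfkb2 overlap those of the opposite-strand gene AC114539.1 over 531 bases, 11.6% of an exon length of 4584 bases. They overlap Psd, also on the opposite strand, over 299 bases (6.52%). The deposited Nfkb2 values fit a length of 3289 bases, so whether these exons were counted is not known. The use of strand in counting was not given, so reads there cannot be assigned to 1 strand. Psd was listed at 5.68 FPKM at most, and AC114539.1 was not among the genes with deposited values.

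RELA (p65), the transactivating subunit of the canonical dimer, had the second highest subunit level. Rela measured 45.3, 41.6 and 44.5 FPKM with DMSO and 42.8, 41.8 and 41.4 FPKM with DASA-58, and the groups overlapped. Its log2 fold change was −0.06 with a 95% interval from −0.15 to 0.03 (limma adjusted p = 0.359). Relb, the transactivating partner of p52, measured 24.0, 23.80 and 24.5 FPKM with DMSO and 23.77, 20.9 and 21.8 FPKM with DASA-58. These groups were separated by a narrow gap, because DASA-58 replicate 1 lay just under the lowest DMSO library, and the log2 fold change of −0.12 (95% interval −0.23 to −0.01) did not pass the test (limma adjusted p = 0.159).

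Nfkb1, which codes for the p105 precursor of p50, and Rel, which codes for the c-Rel subunit, had the lowest FPKM of the subunits. In fragments, Nfkb1 had 2719 to 3073 in a library, against 2064 to 2259 for Rela, and its FPKM was scaled by 12061 bases. Nfkb1 measured 13.9, 13.0 and 13.5 FPKM with DMSO and 12.9, 12.4 and 12.6 FPKM with DASA-58. Its groups lay apart by little, and its log2 fold change of −0.08 (95% interval −0.17 to 0.00) did not pass the test (limma adjusted p = 0.192). Rel measured 5.46, 5.53 and 5.82 FPKM with DMSO and 5.51, 5.44 and 5.49 FPKM with DASA-58. Every DASA-58 value of Rel lay within or just under the DMSO range, and its log2 fold change was −0.03 with a 95% interval from −0.13 to 0.07 (limma adjusted p = 0.732).

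The subunits summed to between 203.0 and 206.6 FPKM with DMSO and to between 186.7 and 190.2 FPKM with DASA-58, so the sums did not overlap. Nfkb2 took 57.6 ± 1.46% of the subunit sum with DMSO and 56.3 ± 0.917% with DASA-58 (SD, n = 3 each), and Rela took 21.3 ± 1.02% and 22.3 ± 0.175%. Rel made up 2.73 ± 0.118% and 2.91 ± 0.0238%, Relb 11.7 ± 0.280% and 11.8 ± 0.697%, and Nfkb1 6.56 ± 0.209% and 6.71 ± 0.101%. The shares of Rela and Rel were higher with DASA-58 without overlap between the groups, and those of Nfkb2, Relb and Nfkb1 overlapped. The shares depend on the length taken for each gene and were not tested.

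Of the IκB inhibitors, Nfkbia was lower and Nfkbie was not. Nfkbia codes for IκBα, which holds RELA dimers in the cytoplasm and is resynthesized within the feedback loop. Its FPKM was the highest of the members in both groups. It measured 144, 148 and 149 FPKM with DMSO and 118, 122 and 120 FPKM with DASA-58. Every DASA-58 library lay well under the DMSO libraries, and the mean went from 147 ± 2.54 to 120 ± 2.32 FPKM (SD, n = 3 each), a log2 fold change of −0.29 (SE 0.03, limma adjusted p = 0.000769). The call held in all 17 alternatives, with log2 fold changes from −0.31 to −0.27 and adjusted p up to 0.0192.

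Nfkbie, which codes for IκBε, the inhibitor that acts with a delay on RELA and c-Rel dimers, went the other way. It measured 32.7, 32.0 and 29.9 FPKM with DMSO and 33.2, 35.0 and 35.5 FPKM with DASA-58. The groups lay apart, with DASA-58 higher, but the log2 fold change of 0.13 (95% interval 0.03 to 0.23) did not pass the test (limma adjusted p = 0.1001), and it did not pass in any of 17 alternatives. The log2 ratio of Nfkbia to Nfkbie was 2.14, 2.21 and 2.32 with DMSO and 1.82, 1.81 and 1.76 with DASA-58, a mean difference of −0.43. This ratio was chosen after its values were seen and has no test.

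The feedback regulators were all lower in mean, and Traf1 and Tnip1 passed the test. Traf1, which codes for a TRAF adaptor without a RING domain that binds TRAF2 and the cellular inhibitors of apoptosis, had the largest decrease of the members. It measured 24.2, 23.4 and 24.0 FPKM with DMSO and 17.6, 18.9 and 17.2 FPKM with DASA-58. No library crossed between the groups, and the mean fell to 74.9% of the DMSO level, from 23.9 ± 0.414 to 17.9 ± 0.868 FPKM (SD, n = 3 each), a log2 fold change of −0.40 (SE 0.04, limma adjusted p = 0.00116). The decrease passed in all 17 alternatives, with log2 fold changes from −0.44 to −0.34.

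Tnip1 codes for ABIN1, a ubiquitin-binding partner of A20. It measured 46.9, 46.9 and 45.5 FPKM with DMSO and 39.8, 38.6 and 39.97 FPKM with DASA-58. The groups were well apart, with means of 46.4 ± 0.811 and 39.5 ± 0.725 FPKM (SD, n = 3 each), and the log2 fold change was −0.23 (SE 0.03, limma adjusted p = 0.00312), which passed in all 17 alternatives.

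Tnfaip3 codes for A20, the ubiquitin-editing enzyme that removes activating chains from RIPK1 and TRAF6, and it had the lowest level of the members. It measured 5.15, 5.40 and 5.31 FPKM with DMSO and 4.36, 4.85 and 4.30 FPKM with DASA-58. The groups did not overlap, and the mean was 85.2% of the DMSO mean, close to the 85.0% of Tnip1. The log2 fold change of −0.19 (95% interval −0.32 to −0.07) missed the threshold (limma adjusted p = 0.0594), and it passed without DASA-58 replicate 2 (adjusted p = 0.0442) and with voom weights on the recovered fragments (0.00982), a setting chosen after seeing the data. Tnfaip3 rested on 589 to 735 fragments in a library, the fewest of the members, for which counting error alone gives a coefficient of variation of up to 4.12%, against 1.25% for Nfkb2 with at least 6428 fragments.

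With DMSO the order of the mean FPKM, which depends on the length taken for each gene, was Nfkbia, Nfkb2, Tnip1, Rela, Nfkbie, Relb, Traf1, Nfkb1, Rel and Tnfaip3. Neighbours in this order had ranges that lay apart, except Relb (23.80 to 24.5 FPKM) and Traf1 (23.4 to 24.2 FPKM), whose ranges overlapped. With DASA-58 the ranges of all neighbours lay apart. Rela then stood above Tnip1, which it lay below with DMSO, and Relb stood above Traf1 without overlap.

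Ratios within a library do not depend on the scaling between libraries, and 4 were tested by a two-sided exact permutation test, which cannot go below p = 0.1 with 3 against 3. The ratio of the inhibitor Nfkbia to Rela was the only 1 of the 4 in which the groups lay apart. The log2 ratio of Nfkbia to Rela was 1.67, 1.84 and 1.74 with DMSO and 1.46, 1.55 and 1.54 with DASA-58, a mean difference of −0.23 (exact p = 0.1, the smallest possible, and 0.4 after Benjamini-Hochberg adjustment over the 4 ratios). The precursor ratio of Nfkb2 to Nfkb1 differed by −0.07 (exact p = 0.3), that of Relb to Rela by −0.06 (exact p = 0.4) and that of Rel to Rela by 0.03 (exact p = 0.9), with adjusted p of 0.533, 0.533 and 0.9. The sign of the last of these turned to −0.01 without DMSO replicate 1.

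**Figure D4:**
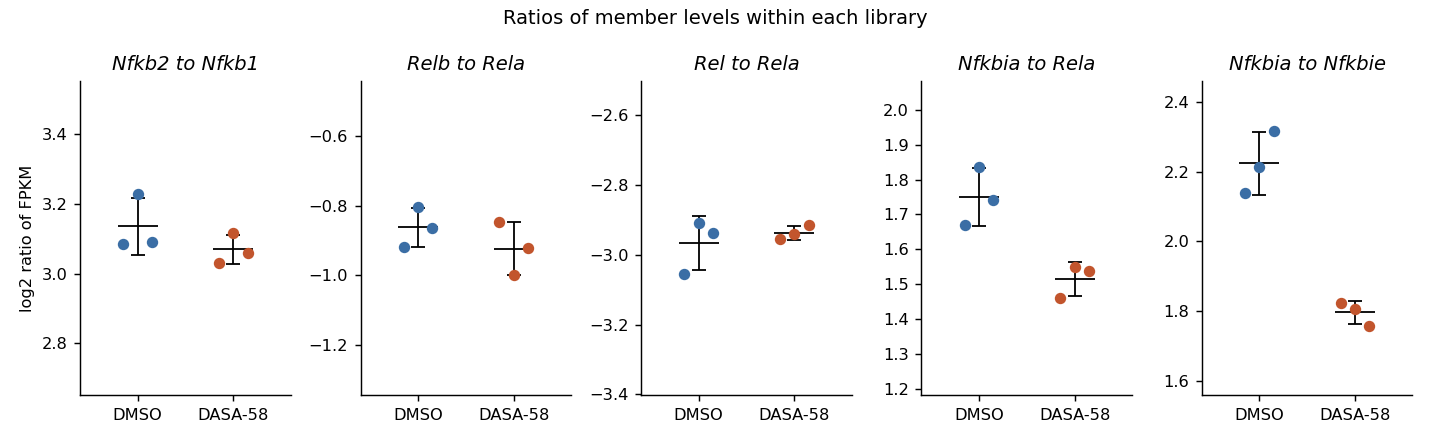
Log2 ratio of FPKM of member pairs within each library, with DMSO in blue and DASA-58 in red, the mean as a long bar and ± 1 SD as the error bar. The vertical axes have the same span and do not start at 0. The groups lie apart for Nfkbia to Rela (means 1.75 and 1.52) and for Nfkbia to Nfkbie (2.22 and 1.80), and they overlap for the other 3 pairs.

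The other genes of the pathway were taken from lists by role. Counts of calls in each list stand against 7.28% of all genes tested called lower and 4.24% called higher. Of 17 receptors that signal to NF-κB, 14 were tested, 1 was called lower and 1 higher, and the median log2 fold change was 0.04. Tnfrsf11a, which codes for RANK, fell from 23.5 ± 1.28 to 18.5 ± 0.355 FPKM (SD, n = 3 each; log2 fold change −0.32, limma adjusted p = 0.00392). Tnfrsf1a, which codes for TNF receptor 1, rose from 84.1 ± 1.32 to 91.5 ± 2.37 FPKM (log2 fold change 0.12, limma adjusted p = 0.0384), a call that was lost in 10 of 17 alternatives, among them equal library totals and leaving out any library other than DASA-58 replicate 1. Its adjusted p over the alternatives ran from 0.0140 to 0.131. The lipopolysaccharide receptor gene Tlr4 measured 10.6 ± 0.572 and 12.3 ± 0.883 FPKM (limma adjusted p = 0.0682).

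Of 21 adaptors and proximal kinases, all tested, 1 was called lower and 2 higher, with a median of −0.04. Malt1, which codes for the paracaspase of the CARD–BCL10–MALT1 complex that cleaves A20, fell from 7.06 ± 0.364 to 4.52 ± 0.375 FPKM (log2 fold change −0.55, limma adjusted p = 0.00179). Irak3, which codes for IRAK-M, a brake on Toll-like receptor signaling, rose by 0.21 on the log2 scale (limma adjusted p = 0.0152), and Ikbke, which codes for IKKε, by 0.15 (0.0329). The Irak3 call was lost without DMSO replicate 1 and without DASA-58 replicate 3, with an adjusted p of at most 0.0607 over 17 alternatives, and the Ikbke call was lost in 10, without any library other than DMSO replicate 3, with an adjusted p of at most 0.106. Traf6, the adaptor that links RANK to the canonical arm, differed by −0.11 (limma adjusted p = 0.176) and Traf3, which holds NIK in check, by −0.04 (0.581).

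Of the 9 IKK, TAK1 and NIK kinase genes, 0 passed the adjusted test of limma although 2 of the 9 had an unadjusted p under 0.05, both lower (18.0% of all genes), and 1 was called lower with voom weights. Their median was −0.03. Map3k14, which codes for NIK, measured 8.28 ± 0.444 and 7.41 ± 0.291 FPKM (log2 fold change −0.14, limma adjusted p = 0.116). The catalytic IKK subunits Chuk and Ikbkb and the scaffold Ikbkg differed by −0.03, 0.02 and −0.02, and each of these 3 changed sign in at least 1 alternative. Of the 12 other IκB proteins and IκB degradation genes, 9 were tested and 2 were called, both lower. Nfkbid, which codes for the nuclear IκBNS, and Bcl3, a nuclear IκB that binds p50 and p52 dimers, each fell by 0.23 on the log2 scale (limma adjusted p = 0.0346 for each), and each call was lost in 9 of 17 alternatives, median centring and quantile normalization included, with an adjusted p of up to 0.144 and 0.145. Leaving out DMSO replicate 1, DASA-58 replicate 2 or DASA-58 replicate 3 ended both calls, and leaving out DMSO replicate 3 ended that of Nfkbid and DMSO replicate 2 that of Bcl3.

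Of 22 ubiquitin writers and erasers, all tested, 1 was called lower and 2 higher, with a median of −0.05. Sqstm1, which codes for the ubiquitin-binding scaffold p62, rose from 352 ± 4.88 to 401 ± 7.19 FPKM (log2 fold change 0.19, limma adjusted p = 0.00356), and Tifa, which codes for an adaptor that binds TRAF6, rose by 0.25 (0.0162). Birc2, which codes for cIAP1, a ubiquitin ligase that pairs with TRAF2, fell by 0.19 on the log2 scale (limma adjusted p = 0.0439), a call lost in 12 of 17 alternatives, every omission of a library included, with adjusted p from 0.0131 to 0.127. The Tifa call was lost in 3 alternatives, among them without DMSO replicate 1 (adjusted p = 0.0569). Cyld, which codes for a deubiquitinase of the pathway, differed by −0.04 (limma adjusted p = 0.617) and Birc3, an NF-κB target that codes for cIAP2, by −0.06 (0.285).

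In both lists of NF-κB targets more genes were called lower than higher, where 7.28% of all genes tested were called lower and 4.24% higher. Of 30 inflammatory targets, 18 were tested, 7 were called lower and 0 higher, with a median of −0.01. By unadjusted p under 0.05, 2 of them were higher, a share near the 9.83% of all genes. The count of lower calls was 2 without variance shrinkage. It was 3 without a filter and without DMSO replicate 1, DASA-58 replicate 1 or DASA-58 replicate 2. It was 4 without a trend, without DMSO replicate 3 or with median centring or quantile normalization. Il1rn, which codes for the interleukin-1 receptor antagonist, fell from 15.1 ± 0.606 to 8.92 ± 0.480 FPKM (log2 fold change −0.70, limma adjusted p = 0.000215), and the chemokine gene Cxcl10 fell from 10.3 ± 1.07 to 5.90 ± 0.301 FPKM (log2 fold change −0.71, adjusted p = 0.00116). Clec4e, which codes for the receptor Mincle, fell by 0.33 on the log2 scale (limma adjusted p = 0.0102) and the chemokine gene Ccl2 by 0.52 (0.0194). The Clec4e call was lost without variance shrinkage (adjusted p = 0.0790). The Ccl2 call was lost in 6 of 17 alternatives, among them without DMSO replicate 1 or 2 and without DASA-58 replicate 1 or 2, with an adjusted p of at most 0.131. Tnf itself measured 4.64 ± 0.741 and 6.08 ± 0.259 FPKM (log2 fold change 0.34, limma adjusted p = 0.0539) and passed in 4 of 17 alternatives, among them without DMSO replicate 2 (adjusted p = 0.0199). The other 12 were under the limit for testing in their mean, with no library above 1.13 FPKM, among them Il1b.

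Of 18 survival and stress targets, 17 were tested, 5 were called lower and 2 higher, with a median of −0.09. Junb, which codes for a subunit of the transcription factor AP-1, fell from 172 ± 6.76 to 128 ± 2.26 FPKM (log2 fold change −0.43, limma adjusted p = 0.000403), and Myc, which codes for a transcription factor of cell growth, fell from 26.4 ± 1.77 to 16.9 ± 1.31 FPKM (log2 fold change −0.62, adjusted p = 0.00124). Gadd45b, a stress-response gene, fell by 0.36 (limma adjusted p = 0.00672) and Ehd1, which codes for an endocytic recycling protein, by 0.19 (0.0132). The call of Gadd45b was lost without variance shrinkage (adjusted p = 0.0669). The call of Ehd1 was lost in 4 alternatives, among them without DMSO replicate 1 and without DASA-58 replicate 3, with an adjusted p of at most 0.0795. The other called genes of this list, named after their values were seen, were Gch1 (−0.17), Bcl2l1 (0.19) and Ier3 (0.22), so the anti-apoptotic gene Bcl2l1 and the early response gene Ier3 rose. Without DMSO replicate 1 this list had 3 lower and 0 higher calls, without DASA-58 replicate 1 it had 5 and 0, without DASA-58 replicate 3 it had 3 and 1, and without any of the other 3 libraries the count of higher calls was 1.

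**Figure D5:**
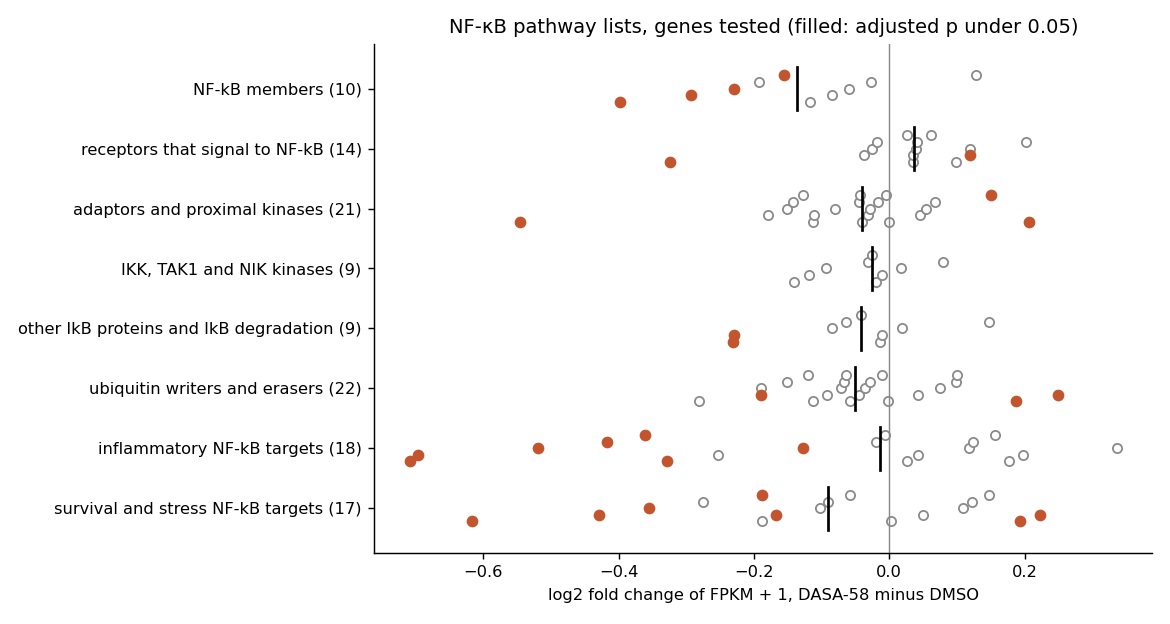
Log2 fold change of FPKM + 1, DASA-58 minus DMSO, of each tested gene in the members and in 7 lists of the pathway, with the number tested in parentheses. Filled points have an adjusted p under 0.05 and black bars are list medians. The members' median of −0.14 is the lowest, survival and stress targets follow at −0.09, and the receptors' median is 0.04.

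Over all genes 798 were called lower and 465 higher, so that 63.2% of the calls were lower, a share of 45.8% with centring on the median, 49.5% with quantile normalization and 71.3% with equal library totals. The calls of Nfkbia, Traf1, Tnip1 and Nfkb2 were kept under each of these 3 scalings. The depth recovered from the values was 18191560 to 18968556 fragments in a library. Pkm, the gene of the enzyme that DASA-58 activates, measured 575 ± 9.70 and 575 ± 6.09 FPKM (SD, n = 3 each), and the housekeeping gene Actb fell by 0.11 on the log2 scale (limma adjusted p = 0.0223), a call lost in 7 of 17 alternatives, among them without DMSO replicate 1 and without each DASA-58 library in turn, with an adjusted p of at most 0.321. The housekeeping gene Gapdh was not called (log2 fold change 0.07, limma adjusted p = 0.608).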

How the data were processed

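The 6 BMM libraries (3 DMSO, 3 DASA-58) were grouped by the treatment given in the sample labels. The authors deposited a table of FPKM values for 23504 genes, with a column for each library. The submitters' processing notes name HISAT2 2.1.0, HTSeq 0.6.0 and the build mm8. The annotation and the use of strand were not given in the sources used here, and no coordinates are printed other than those of the RefSeq promoters. Ensembl identifiers were matched to symbols for 23455 genes and not for 49, and Skp1, Cd209a and Timd4 were among the listed genes not found by symbol. The deposited FPKM values step by whole fragments: with gene lengths of GENCODE M21, 21367 genes (90.9%) were whole within 0.02 fragments in all libraries, which gave the depth. The lengths of Nfkb2, Rela and Nfkbie were fitted. Fragments served for the counting error, which covers counting only, and for the voom alternative.

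Values were taken as log2(FPKM + 1), and genes averaging 1 FPKM or more over the 6 libraries were kept, 10965 in all. DASA-58 was set against DMSO in limma 3.58.1 (R 4.3.3, lmFit, then eBayes with a trend) as independent groups, as in the study's methods, and p-values were adjusted over these genes by Benjamini-Hochberg. Ratios within a library were tested by exact permutation in SciPy 1.17.1. The members and lists were chosen with earlier results of these data known, and lists share Tlr2, Birc3 and Nfkbiz. Genes were named from a rule that takes all members, up to 4 genes of each other list and each marker list with the smallest p, and a short list of further pathway, osteoclast and housekeeping genes. Not every gene it takes is described, and genes outside it are marked. Alternatives were pseudocounts of 0.1 and 5, no filter, a mean of at least 5 FPKM, equal totals, median centring, quantile normalization, no trend, no variance shrinkage, a replicate block, each library left out, and 1 FPKM added to both genes of a ratio. Voom weights on recovered fragments were added after seeing the data. The promoter search used the RefSeq promoter table of build GRCm38.p6. The limma fit was tested on simulated data. Figures were drawn with matplotlib 3.10.9, and tables with pandas 2.3.3 under Python 3.11.15.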

Additional observations from a re-analysis of the deposited data

How the results depend on the processing

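Small groups and small differences limit these results: most differences of the members were under 0.3 on the log2 scale, and exact tests of 3 against 3 cannot go below p = 0.1. The count of members called lower was 3 to 5 in all 17 alternatives (3 to 5 without a library) and that of members called higher was 0 in each. The count of genes called lower, 798, was 372 without a filter, 504 with median centring, 515 without a trend, 314 without variance shrinkage and 1298 with voom weights, a setting chosen after seeing the data, and the count called higher, 465, was 257 without a filter, 227 without variance shrinkage and 713 with voom weights. Leaving out a library gave 387 to 603 lower and 272 to 375 higher, and moved the lower count by over 1.5 times without DMSO replicate 1 (387) or DASA-58 replicate 1 (413), 2 (467) or 3 (400), and the higher count without the same libraries (282, 272, 296 and 276). Fewer samples entered these fits. For the other changes the cause was not tested.

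Signs turned only near 0: Rel was 0.0027 on the log2 scale with quantile normalization, Ikbkg 0.0077 with median centring and 0.0075 with quantile normalization, and Pkm 0.026 and 0.045 with the same 2 settings. Without a library in turn, Chuk ran from −0.065 to 0.0032, Ikbkb from −0.016 to 0.047, Ikbkg from −0.049 to 0.027, Nfkbib from −0.086 to 0.011, Pkm from −0.015 to 0.0066, and the log2 ratio of Rel to Rela from −0.014 to 0.058. Over the genes named and their alternatives, 1018 values kept direction and side of the threshold, 88 lost a call, 14 gained a call and 12 changed sign.

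With the replicate block 579 genes were called lower and 378 higher, and 4 members were called lower. The 4 ratios had exact sign-flip p of 0.25 to 0.75, where 0.25 is the smallest possible with 3 pairs. Deviations of libraries with the same number correlated at −0.015, 0.016 and −0.016. Such values cannot tell whether these libraries shared a mouse, culture or batch.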
